A study of Mus musculus with 17 samples.

Results

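Sorted neuronal nuclei of the nucleus accumbens (NAc), a reward area of the ventral forebrain, were examined at 10 marker genes of glial and vascular cells. Nuclei had been sorted by the neuronal antigen NeuN (encoded by Rbfox3), and the genes mark cells that such a sort is meant to leave behind. They were Gfap, Aqp4 and Aldh1l1 for astrocytes, Mbp and Mog for myelinating oligodendrocytes, Olig2 and Pdgfra for the oligodendrocyte lineage and its precursors, Cx3cr1 and Csf1r for microglia, and Cldn5 for endothelial cells. All 10 had been chosen by name as textbook markers, with earlier results of these data known, out of 21755 protein-coding genes annotated on chromosomes 1 to 19 and X. Their peaks were those overlapping the gene body extended by 10 kb on each side, windows that held 1401 of 2136179 peaks over 17 libraries.

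ATAC-seq maps open chromatin, into which a transposase inserts sequencing adapters. The animals were C57BL/6 mice by the labels (C57BL/6J in the methods of the study), 52 to 54 days old, killed 1 hour after an intraperitoneal dose of cocaine (10 mg/kg) or kept as controls without cocaine at the 0-hour baseline, and each library pooled the NAc of both sides from 3 animals. Females in diestrus and females in proestrus gave 3 control and 3 cocaine libraries per stage, and males gave 3 control and 2 cocaine libraries, where diestrus and proestrus are the low- and high-estrogen stages of the estrous cycle. The stage of diestrus cocaine library 2 is given as NA in its label and was read from its title. Libraries held 75458 to 157005 peaks, the 2 male cocaine libraries the fewest, and a peak lay within 1 kb of a start of 58.8% to 63.9% of protein-coding genes.

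Astrocytes, oligodendrocytes, microglia and the endothelium of blood vessels surround the neurons of the NAc. Astrocytes clear transmitter and water, oligodendrocytes wrap axons in myelin, microglia are the resident immune cells, and endothelial tight junctions form the blood-brain barrier. Genes that define a cell type usually have open promoters in that cell type and mostly closed ones elsewhere. In bulk nuclei, more nuclei of a cell type and a site more open in each nucleus cannot be told apart.

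The promoters on which the results by start turn are shown first, as RefSeq gives them for GRCm38.p6, the assembly also called mm10. Each runs from 250 bases before to 50 bases after the start, 5′ to 3′ on the strand of the gene, and 7 of the 10 members had an entry. Olig2 (chr16:91225300-91225599, plus strand), Aldh1l1 (chr6:90550543-90550842, plus strand) and Mog (chr17:37023349-37023648, minus strand) are shown because peaks overlapped them in 2 libraries, 1 library and 1 library, respectively. Gfap (chr11:102897151-102897450, minus strand) is shown because no peak touched it in any library. Capitals mark CpG dinucleotides.
Olig2: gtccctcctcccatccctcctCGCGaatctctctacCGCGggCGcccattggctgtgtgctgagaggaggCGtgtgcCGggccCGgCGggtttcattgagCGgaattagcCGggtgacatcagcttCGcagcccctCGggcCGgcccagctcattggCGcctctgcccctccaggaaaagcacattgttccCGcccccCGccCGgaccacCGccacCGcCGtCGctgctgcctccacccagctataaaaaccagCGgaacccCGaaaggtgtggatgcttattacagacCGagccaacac
Aldh1l1: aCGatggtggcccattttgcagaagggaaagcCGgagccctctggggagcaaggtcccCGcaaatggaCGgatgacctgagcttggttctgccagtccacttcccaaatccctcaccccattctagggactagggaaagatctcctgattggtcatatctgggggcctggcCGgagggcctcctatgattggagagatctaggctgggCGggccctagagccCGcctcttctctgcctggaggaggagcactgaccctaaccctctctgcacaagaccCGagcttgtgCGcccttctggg
Mog: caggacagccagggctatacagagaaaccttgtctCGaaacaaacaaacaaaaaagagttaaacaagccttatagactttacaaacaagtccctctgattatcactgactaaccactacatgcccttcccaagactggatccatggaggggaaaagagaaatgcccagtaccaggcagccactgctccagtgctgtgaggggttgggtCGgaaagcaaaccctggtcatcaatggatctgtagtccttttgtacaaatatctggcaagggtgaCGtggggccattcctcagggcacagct
Gfap: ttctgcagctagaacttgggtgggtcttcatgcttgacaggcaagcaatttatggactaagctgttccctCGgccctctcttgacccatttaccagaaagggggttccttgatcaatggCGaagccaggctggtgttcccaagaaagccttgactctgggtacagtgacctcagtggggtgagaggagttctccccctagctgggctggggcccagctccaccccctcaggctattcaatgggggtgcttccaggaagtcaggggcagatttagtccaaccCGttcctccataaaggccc

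These 4 promoters differed in CpG content. That of Olig2 held 25 CpG dinucleotides, and 81.6% of 27025 mouse promoters of this length held fewer. That of Aldh1l1 held 9 (53.8% held fewer), and those of Mog and Gfap held 3 each (23.8% held fewer). The CCAAT box (CCAAT or, on the other strand, ATTGG) occurred 2 times each in the Olig2 and Aldh1l1 promoters and 0 times in those of Mog and Gfap, and 37.9% of all promoters held it. The TATA box (TATAAA or TTTATA) occurred 1 time in the Olig2 promoter and in none of the other 3, and 14.2% of all promoters held it. Such matches describe letters only.

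One library stood highest at the starts of these genes. In proestrus cocaine library 2, peaks lay at a start of 6 members (Gfap, Aldh1l1, Mbp, Mog, Olig2 and Pdgfra). Diestrus cocaine library 3 came next with 5 members, and the rest had 2 to 4. Proestrus cocaine library 2 was the only library with a peak at the start of Mog and at the protein-coding starts of Aldh1l1. Its group label was kept, and its value is given separately where a result turns on it.

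To describe which starts were open, the annotated starts of each member were grouped where they lay less than 1 kb apart, and peaks within 1 kb of each group were listed by library. Over all protein-coding genes, 55.9% had a peak at a start in all 17 libraries and 31.5% in none. Of the 10 members, 1 (Mbp) had one in all 17 libraries, 2 (Cx3cr1 and Cldn5) in none and 7 in some. Genes between these extremes made up 12.6% of all protein-coding genes.

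**Figure D1:**
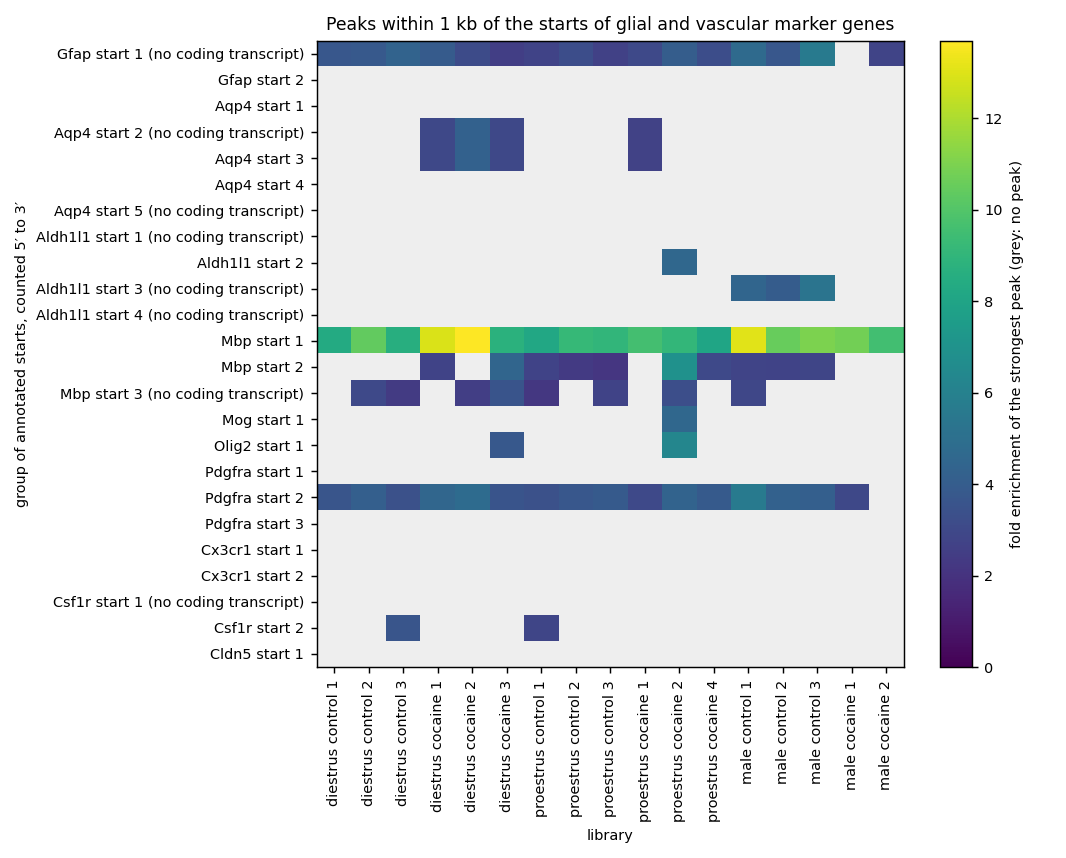
Each row is a group of annotated starts of a marker gene (counted 5′ to 3′ along the gene), each column a library, and the colour gives the fold enrichment of the strongest peak within 1 kb, with grey for no peak. Mbp start 1 is coloured in all 17 libraries, whereas Mog start 1 and Aldh1l1 start 2 are coloured in proestrus cocaine library 2 only.

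Astrocyte markers had their peaks mainly at noncoding or internal starts. For Gfap, the intermediate filament of astrocytes, the coding starts (chromosome 11, 102897131 to 102897200) had a peak in 0 of 17 libraries. A noncoding transcript of Gfap that starts upstream at 102900912 had one in 16 of 17 libraries, all but male cocaine library 1, with fold enrichments over background of 2.53 to 5.6. For Aqp4, the water channel of astrocyte endfeet, the 5′-most starts (chromosome 18, 15410929 to 15410982) had 0 peaks in 17 libraries.

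A weak Aqp4 peak inside the gene, at a region within 1 kb of internal starts at 15409494 and 15408088 (chromosome 18, 15408468 to 15409051), was called in all 3 diestrus cocaine libraries and proestrus cocaine library 1. Its fold enrichment was 2.7 to 4.28. It was present in 4 of 8 libraries after cocaine against 0 of 9 controls (two-sided Fisher's exact test, p = 0.0294, adjusted p over all 64304 tested regions = 0.321). Regions were kept where 2 or more libraries of a group called them, and this one was kept only through diestrus cocaine. The test also pools sexes and stages, so its p is a description. The region also lies in the antisense RNA gene AC133525.2, and the calls do not tell the strands apart.

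Aldh1l1, a folate enzyme used to label astrocytes, differed by start. Its protein-coding starts (chromosome 6, 90550789 to 90550848), whose promoter is printed above, had a peak only in proestrus cocaine library 2, at a fold enrichment of 4.6. A start of a noncoding transcript 17 kb farther into the gene, at 90567706, had one in male control libraries 1, 2 and 3 and in none of the other 14. The fold enrichments there were 3.99 to 5.27.

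Among oligodendrocyte markers, Mbp, a major protein of myelin, stood out. The same gene carries upstream starts for the Golli transcripts, which neurons are known to use, and downstream starts for the classic myelin protein. The upstream starts (chromosome 18, 82475146 to 82475370) had a peak in all 17 libraries with fold enrichments of 8.06 to 13.7. The downstream starts (82554470 to 82554580) had one in 10 libraries, at 2.18 to 6.95.

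Fold enrichments were not normalized between libraries, so each was also ranked within its library as a promoter level, the percent of 12159 reference promoters (those with a peak in every library) that had a lower value. The upstream Mbp starts stood at levels of 23.9% to 40.8%, lowest in proestrus cocaine library 2. The downstream starts reached 13.5% in that library and 8.17% in diestrus cocaine library 3, and at most 0.954% in the others. The order of the 2 promoters was thus the same in every library, but they were closest in proestrus cocaine library 2.

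Mog, a surface protein of mature myelin, had a peak at its start (chromosome 17, 37023199 to 37023398) in proestrus cocaine library 2 alone, at a fold enrichment of 4.6. Olig2, the transcription factor that specifies the oligodendrocyte lineage, had one in diestrus cocaine library 3 (fold enrichment of 3.79, promoter level of 4.17%) and proestrus cocaine library 2 (6.31 and 10.1%). These are the same 2 libraries in which the downstream Mbp starts stood highest. Pdgfra, the growth factor receptor of oligodendrocyte precursors, had no peak at its 5′-most starts (chromosome 5, 75152292 to 75153586). Its internal starts at 75155076 to 75156833 had one in 16 of 17 libraries (2.95 to 5.61), all but male cocaine library 2.

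Microglial and endothelial starts were mostly without peaks. Cx3cr1, the fractalkine receptor of microglia, had 0 libraries with a peak at any start. Csf1r, the receptor on which microglia depend for survival, had one at its coding starts (chromosome 18, 61105572 to 61105879) in diestrus control library 3 (3.63) and proestrus control library 1 (2.85). Cldn5, a tight junction protein of brain endothelium, had no peak at its start and none in its whole window (chromosome 16, gene at 18776847 to 18778262) in any library. A window with 0 peaks in 17 libraries was found for 16.6% of all protein-coding genes.

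By promoter level, most members lay below most markers of accumbens neurons, with overlap. The median over 17 libraries was 32% for Mbp, 1.83% for Pdgfra, 0.658% for Gfap and 0% for the other 7 members. Over 22 neuronal marker genes, these medians ran from 0.493% to 81.6% with a middle value of 40.8%, and 21 of the 22 had a promoter peak in all 17 libraries. Rbfox3, which encodes NeuN, stood at 15.1% to 78.6% (median 50.5%), Gad2, which makes GABA, at 8.81% to 46.2% (28.6%), and Ppp1r1b, the DARPP-32 protein of spiny neurons, at 45.1% to 82.8% (73.3%). Other neuronal genes, named after their values were seen, stood lower. Pdyn, the precursor of dynorphin, had a median of 0.493%, below those of Gfap and Pdgfra, and Tac1 (5.72%), Drd2 (8.11%) and Adora2a (8.77%), further genes of spiny neurons, had medians below the highest value of Olig2 (10.1%).

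**Figure D2:**
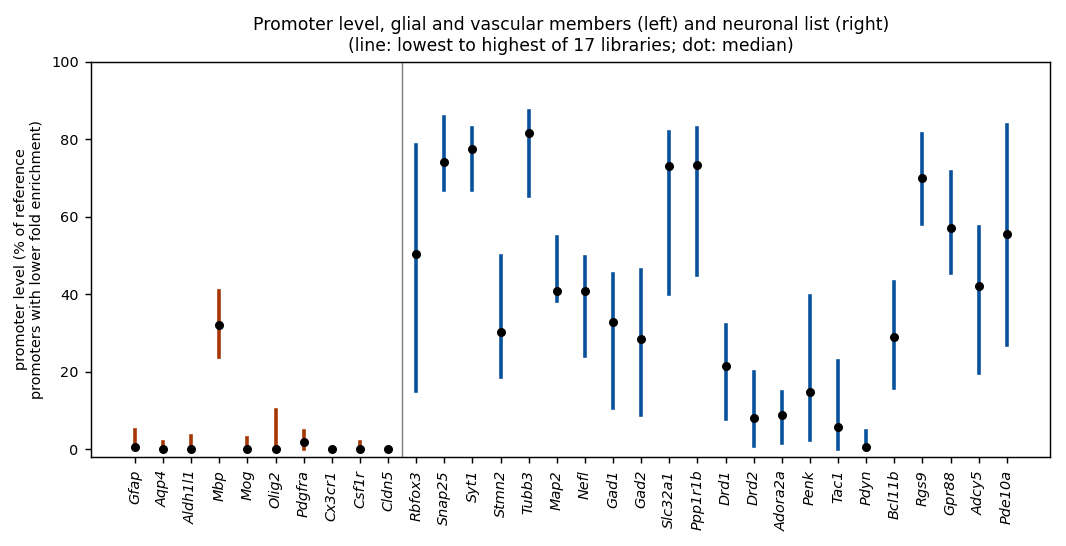
Each vertical line spans the lowest to the highest promoter level of a gene over 17 libraries (percent of reference promoters with a lower fold enrichment), and the dot is the median. Apart from Mbp at 23.9% to 40.8%, members lie at 10.1% or below, while the medians of the neuronal genes run from 0.493% to 81.6% and overlap them at the low end.

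To see whether other markers of the same cell types followed the members, promoters of 66 further glial and vascular genes were counted. These lists were chosen with earlier results of these data known, so the counts are a description. Oligodendrocyte genes separated proestrus cocaine library 2 from the rest, with 13 of 14 open there and 4 to 7 in the other 16 libraries (7 in diestrus cocaine library 3). Astrocyte genes did so to a smaller extent (11 of 13 against 7 to 9, with 9 in diestrus cocaine library 3). So did oligodendrocyte precursor and lineage genes (5 of 8 against 3 to 4) and endothelial and mural genes (6 of 15 against 2 to 5). With stricter peak sets or other promoter distances, oligodendrocyte and astrocyte genes still separated proestrus cocaine library 2. Endothelial and mural genes then did not, for example at 4 against 2 to 4 with an equal number of strongest peaks. Precursor and lineage genes did not with the 5′ end of the gene alone (4 against 3 to 4). Microglial genes in that library lay within the range of the others, with 5 of 16 against 3 to 6. The neuronal list was at 22 of 22 in that library and at 21 or 22 elsewhere.

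**Figure D3:**
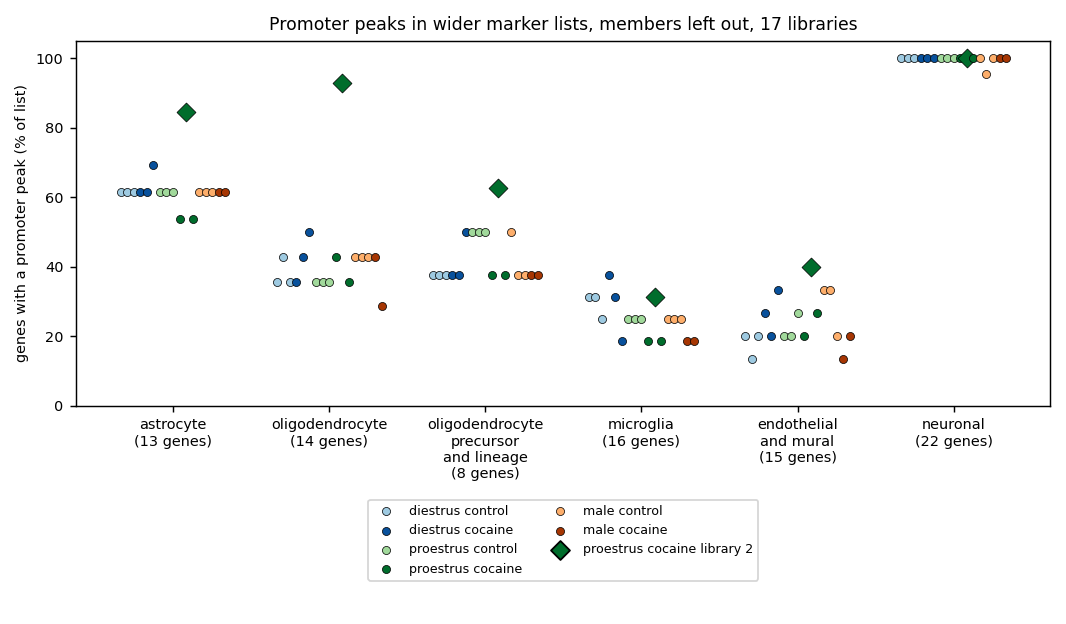
Each point is a library, and the y axis is the percent of genes of a list with a promoter peak, members left out. The diamond, proestrus cocaine library 2, lies above all other libraries for oligodendrocyte genes (13 of 14), whereas it lies among them for microglial (5 of 16) and neuronal genes (22 of 22).

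Genes with a promoter peak in 1 library only were also counted. Proestrus cocaine library 2 had 85 of them, or 0.391% of protein-coding genes, and the other libraries 3 to 57. Genes of the oligodendrocyte list were among them, and those given here are named after their values were seen. Mag, Mobp, Opalin and Ermn, which are expressed in myelinating cells, and Sox10, a transcription factor of the lineage, were open in that library only. Fgfr3 and Acsbg1 of the astrocyte list and Nkx2-2 of the precursor list did the same. The levels of these named genes in that library were low, from 0.0329% for Opalin to 5.81% for Mobp. Across the 5 glial and vascular lists, no other library had more than 1 gene open in it alone.

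Peaks within the windows were not spread evenly over the members. Per 100 kb of window, the mean over 17 libraries was 35.2 peaks for Mbp and 18.2 for Gfap, followed by 9.13 for Csf1r, 7.06 for Cx3cr1, 5.85 for Aldh1l1, 4.5 for Mog, 3.48 for Pdgfra, 1.28 for Aqp4, 1.01 for Olig2 and 0 for Cldn5. The median over all protein-coding genes was 6.2, and over the neuronal list 30.3. Merged over libraries, the windows held 82 regions found in 2 or more libraries of the same group, 41 of them in the Mbp window.

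Many of the constant regions belong to neighbours. Regions called in all 17 libraries made up 25 of the 82 (30.5%, against 25% of 147420 regions in all), and 16 of the 25 lay in the Mbp window. Of the other 9, 7 lay at a start or in the body of another protein-coding gene. In the Gfap window the widest region covered the starts of Eftud2 and Ccdc103 (chromosome 11, 102879034 to 102885292). In the 168-kb gene model of Cx3cr1, all 5 constant regions lay at or within Wdr48, Gorasp1, Ttc21a, Csrnp1 or Xirp1. The exceptions were a region at a coding exon of Gfap (102887437 to 102889010), also in the body of the gene Gm26668, and one 5 kb upstream of Mog (chromosome 17, 37028034 to 37029536).

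Next, peaks per window were compared between cocaine and control, with treatment labels exchanged within diestrus, proestrus and male libraries. Of 9 members tested, 0 were called at an adjusted p of 0.05, as were 0% of 17813 genes. At an unadjusted p under 0.05 stood 2 members (Gfap and Aqp4) and 5559 genes (31.2%). Members moved by a median of -1.39 peaks and all genes by -0.889.

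Gfap had the smallest p among the members. The counts were 6, 10 and 7 in diestrus control against 6, 5 and 4 in diestrus cocaine libraries, 9, 8 and 10 against 5, 5 and 6 in proestrus, and 4, 7 and 6 against 3 and 3 in males. The groups did not overlap in proestrus and males and met at 6 in diestrus. How many of all genes had groups apart in this way was not counted, here or for the members below. The mean difference was -3 peaks (exact permutation test, two-sided, p = 0.001, Benjamini-Hochberg adjusted p = 0.053 over all genes), short of the threshold. With the gene body alone it was -0.556 (adjusted p = 0.183), and with peaks of −log10 q of at least 5 it was -1.72 (adjusted p = 0.113, both by the exact permutation test).

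Those Gfap counts join peaks at different places. The region at the Eftud2 and Ccdc103 starts alone held 2 to 5 peaks in control and 1 to 4 in cocaine libraries. The rest of the window held 2 to 6 peaks in the 9 control and 1 to 4 in the 8 cocaine libraries. As a percent of the window covered by peaks, the difference was -7.25 points with an adjusted p of 0.0479 (exact permutation test, two-sided), as was then called for 2724 genes in all.

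Aqp4 held 0 peaks in all 6 female control libraries. It held 1, 2 and 2 in diestrus cocaine libraries, 1, 1 and 0 in proestrus cocaine libraries, 0, 1 and 0 in male control and 0 and 1 in male cocaine libraries. Diestrus groups did not overlap, and the others did. The mean difference was 0.833 peaks (exact permutation test, two-sided, p = 0.016, adjusted p = 0.0905). With peaks of −log10 q of at least 5 it was 0.222 (exact permutation test, p = 1). For Mbp the mean difference was -10.7 peaks (exact permutation test, p = 0.0907, adjusted p = 0.225).

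**Figure D4:**
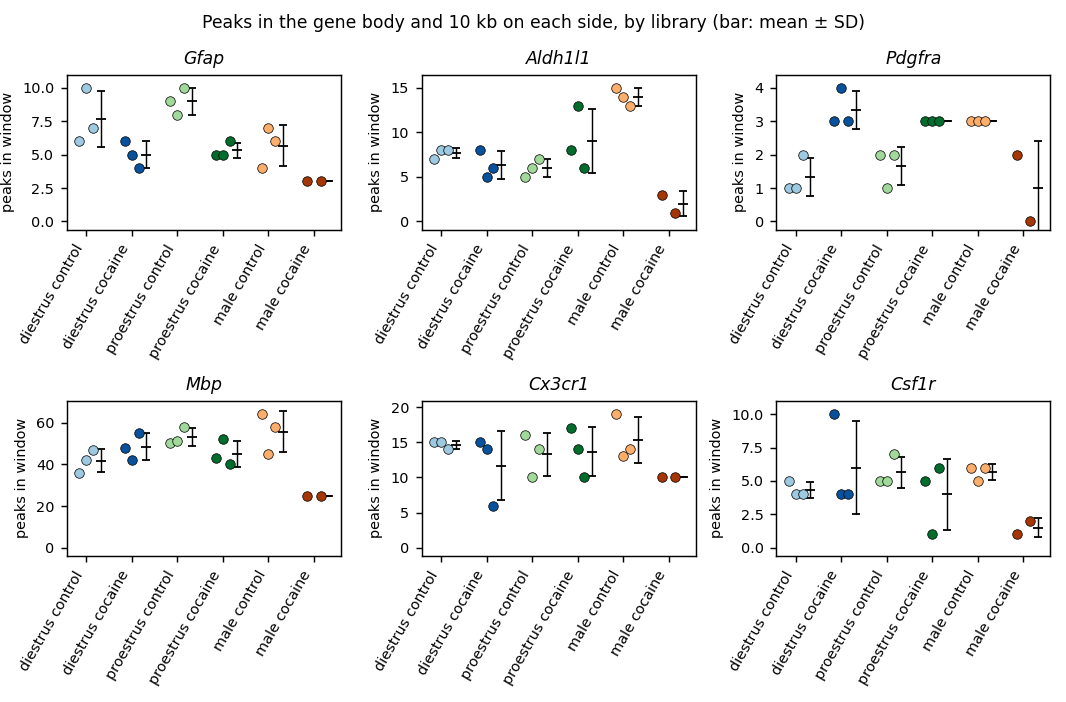
Points are libraries, the y axis counts peaks in the window of each gene, and bars give the mean ± SD of the group (n = 3, or 2 for male cocaine). Male cocaine libraries lie lowest for Gfap (3 and 3), Aldh1l1 (3 and 1) and Mbp (25 and 25).

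The cocaine effect of males was then compared with that of females, by exchanging sex labels within each treatment. Of 9 members tested, 2 (Aldh1l1 and Pdgfra) were called, both lower, against 6.25% of 17813 genes called, 1106 lower and 8 higher. Because labels are exchanged in both treatments, the smallest p needs the sexes to lie apart in opposite directions in controls and after cocaine. Male cocaine libraries had the fewest peaks of all, and over the libraries the summed peaks of the members rose with library peak number (Spearman's rho = 0.634, n = 17, given as a description). Of the 1401 summed peaks, 781 lay in the Mbp window.

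Aldh1l1 held 7, 8 and 8 peaks in diestrus control, 8, 5 and 6 in diestrus cocaine, 5, 6 and 7 in proestrus control and 8, 13 and 6 in proestrus cocaine libraries. It held 15, 14 and 13 in male control against 3 and 1 in male cocaine libraries. Male cocaine libraries thus lay below every other library. Male control libraries lay above the female libraries except proestrus cocaine library 2, which tied with the lowest of them at 13, and the female groups overlapped within each stage. The cocaine effect in males minus that in females was -12.8 peaks (exact permutation test, two-sided, p = 4.25e-04, the smallest that the assignments allow, adjusted p = 0.0199). Without proestrus cocaine library 2 it was -11.8 (adjusted p = 0.0233).

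Pdgfra counts were ordered in opposite ways in the sexes. The gene held 1, 1 and 2 peaks in diestrus control against 3, 4 and 3 in diestrus cocaine, and 2, 1 and 2 in proestrus control against 3, 3 and 3 in proestrus cocaine libraries. In males it held 3, 3 and 3 in control against 2 and 0 in cocaine libraries. Control and cocaine did not overlap in any of the 3 strata, at counts of 0 to 4. The share of all genes separated in this way was not counted. In males, 16.8% of all regions were called in every control and no cocaine library. The difference between the effects was -3.67 peaks (exact permutation test, two-sided, p = 4.25e-04, adjusted p = 0.0199).

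Both calls changed with the peaks kept per library. With the same number of strongest peaks in every library (75458), the difference was -9.17 for Aldh1l1 (exact permutation test, adjusted p = 0.153) and -1.67 for Pdgfra (adjusted p = 0.408), and 0 genes were called in all. With peaks of −log10 q of at least 5, Aldh1l1 was no longer called (-9, adjusted p = 0.0559) and Pdgfra was (-3, adjusted p = 0.0387). Scaled to 100000 peaks per library, the difference was -8.42 and -2.42, both with an adjusted p of 0.0408. Without male cocaine library 2 it was -11.8 (adjusted p = 0.112) and -2.67 (adjusted p = 0.0937), and without male cocaine library 1 or male control library 3 the adjusted p rose to 0.0512 and 0.0516 for both genes. In males treatment and peak number cannot be told apart.

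For Mbp, the male groups were also apart. The gene held 36, 42 and 47 peaks in diestrus control, 48, 42 and 55 in diestrus cocaine, 50, 51 and 58 in proestrus control and 43, 52 and 40 in proestrus cocaine libraries. It held 64, 45 and 58 in male control against 25 and 25 in male cocaine libraries. The diestrus and proestrus groups overlapped, and the male groups did not. Its difference of -30 peaks did not pass the threshold (exact permutation test, p = 0.00468, adjusted p = 0.0601), nor did that of -1.83 for Mog (p = 0.0476, adjusted p = 0.219). Mbp was called with peaks of −log10 q of at least 5 (-19.5, adjusted p = 0.0198), by covered percent of the window (-25.6 points, adjusted p = 0.00751) and without proestrus control library 3 (-32.1, adjusted p = 0.0486). Over the 9 tested members 8 differences were negative, as were 12573 of 17813 over all genes.

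In the wider lists, the same comparison called 2 of 13 astrocyte genes (Slc1a2 and Slc1a3, the glutamate transporters), 2 of 13 oligodendrocyte genes (Enpp2 and Ermn) and 1 of 8 precursor genes (Lhfpl3). It also called 2 of 14 microglial genes (P2ry12, a purinergic receptor, and Spi1, the transcription factor PU.1) and 2 of 13 endothelial and mural genes (Cdh5, a junction cadherin, and Pdgfrb, the pericyte receptor). All 9 were lower, from -2.67 peaks for Ermn to -14.8 for Lhfpl3. Of the 22 neuronal genes 0 were called, with a median difference of -3.58 peaks. The medians were -2 for astrocyte, -0.833 for oligodendrocyte, -0.5 for precursor, -0.583 for microglial and -0.667 for endothelial and mural genes. The neuronal windows together held 1088, 1065 and 1130 peaks in male control against 742 and 569 in male cocaine libraries. Over all genes 6.25% were called, and the lists were not tested against that share or against each other. By promoter level, where 6.98% of all genes were called, Sox9 of the astrocyte list (-16.6 points), Vcan of the precursor list (-16.6) and Snap25 of the neuronal list (-16.3) were called lower.

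Where along the 2 called genes the peaks differed was read from the merged regions. Of 12 regions in the Aldh1l1 window, 7 were called in all 3 male control and neither male cocaine library. They lay 9 kb upstream, in introns and at a coding exon of the gene, at the noncoding start at 90567706, and downstream in Slc41a3. The upstream one (chromosome 6, 90476996 to 90477509) was also called in all 3 diestrus control libraries, and in 0 of 8 cocaine libraries against 6 of 9 control libraries (Fisher's exact test, p = 0.00905, adjusted p = 0.273). It was kept only through control groups, so this p is a description.

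Pdgfra had 3 regions. The one 9 kb upstream (chromosome 5, 75143146 to 75143564), in the body of the long noncoding RNA gene Gm19583, was called in all 6 female cocaine libraries and 0 of 6 female control libraries. In males it was called in 3 of 3 control and 0 of 2 cocaine libraries, the opposite order. Over all libraries its p was 0.153 (Fisher's exact test, adjusted p = 0.511). Of all regions, 1.16% were gained in diestrus, 2.45% were gained in proestrus and 16.8% were lost in males. With peaks of −log10 q of at least 5, no member region was gained in either stage. Another region of Pdgfra, at the internal starts (75156873 to 75157427), was called in 1 of 3 controls and 3 of 3 cocaine libraries in both diestrus and proestrus. In males it was called in 3 of 3 control and 1 of 2 cocaine libraries. With the gene body alone, which leaves the upstream region out, the difference between the sexes was -1.67 peaks (exact permutation test, adjusted p = 0.268).

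**Figure D5:**
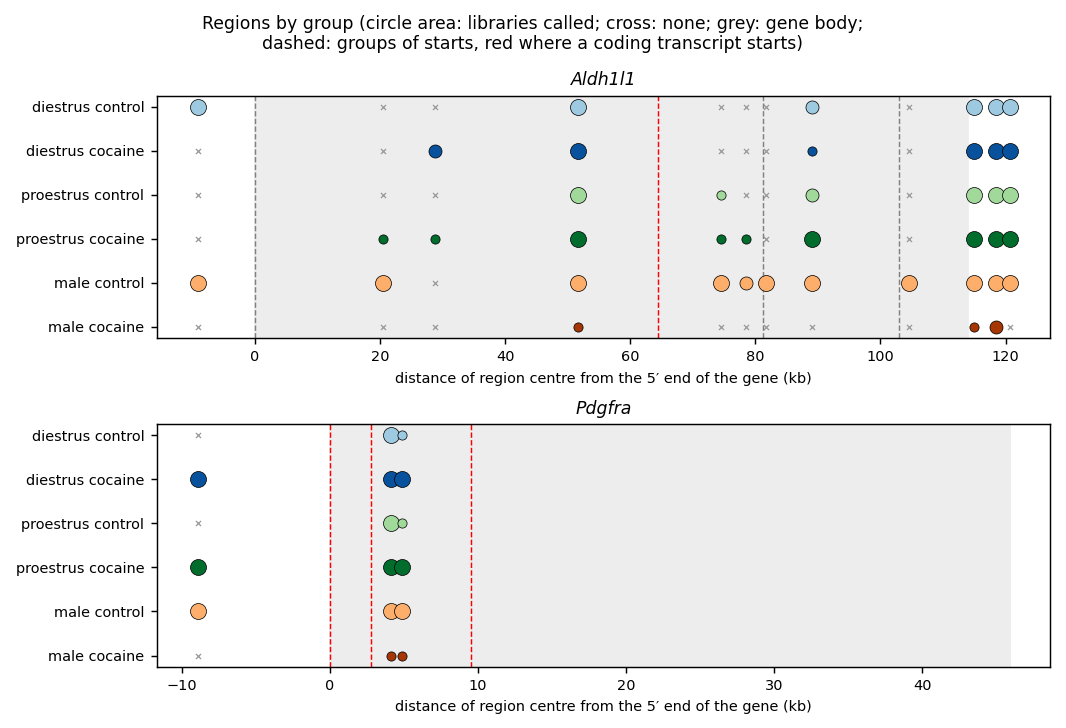
Circles show regions of the Aldh1l1 and Pdgfra windows by distance of the centre from the 5′ end of the gene (kb), with the area giving the number of libraries of the group that called the region and a cross for none. At Aldh1l1, 7 regions are present in all male control and no male cocaine library, and at Pdgfra the region 9 kb upstream is present in all 6 female cocaine libraries and none of the 6 female controls.

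Counted over all members, 23 of 82 regions (28%) were lost in males after cocaine, that is, called in every control and no cocaine library, against 16.8% of all regions, and 0 were gained, against 1.66%. By gene these were 12 at Mbp, 7 at Aldh1l1, 2 at Csf1r and 1 each at Mog and Pdgfra, and regions of the same gene are not independent. The male cocaine libraries held 87707 and 75458 peaks, against 134653 to 150009 in male control libraries. In diestrus 2 were gained (at Aqp4 and Pdgfra) and 1 was lost (at Aldh1l1), against 1.16% and 1.26% of all regions. In proestrus 1 was gained (at Pdgfra) and 1 was lost (at Mbp), against 2.45% and 1.64%. No p-value belongs to these counts, since 3 libraries against 3 cannot go below 0.1.

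Over all 8 cocaine and 9 control libraries, 0 of 35 tested member regions were called by Fisher's exact test, as were 0% of 64304 regions. At an unadjusted p under 0.05 stood 5 member regions and 8385 regions in all. The 5 were the Aqp4 and Aldh1l1 regions above and 3 at Mbp, of which an intronic one (chromosome 18, 82511236 to 82512664) was present in 2 of 8 libraries after cocaine against 8 of 9 controls (Fisher's exact test, p = 0.0152). The smallest adjusted p among member regions was 0.273. Each of the 5 regions was kept only through groups of the side with more calls, so these unadjusted p-values are a description.

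Sexes and stages were compared in the same way. For males against females 0 of 9 members were called, as were 0% of 17813 genes, and 1 member and 3912 genes stood at an unadjusted p under 0.05. That member was Gfap, with fewer peaks in males (mean difference -2.42, exact permutation test, two-sided, p = 0.00255, adjusted p = 0.0927). For diestrus against proestrus 0 of 9 members were called, as were 0% of 17087 genes, with 0 members and 322 genes at an unadjusted p under 0.05. The smallest p that the 400 assignments allow there is 0.005.

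Promoter levels gave no call for any member. For cocaine against control this held for 0 of 8 tested members and 0% of 14757 genes, with 1 member and 2583 genes at an unadjusted p under 0.05. The member was Mbp, whose level was higher by 3.98 points after cocaine (exact permutation test, two-sided, p = 0.0495, adjusted p = 0.283). In every library its level was that of the upstream starts, not of the downstream starts for the classic myelin protein. It was 29.9% ± 1.68 in diestrus control against 37.9% ± 2.55 in diestrus cocaine, 30.9% ± 1.87 against 30.5% ± 6.18 in proestrus, and 32.9% ± 3.61 against 37.3% ± 1.98 in males (mean ± SD, n = 3, or 2 for male cocaine). The proestrus cocaine libraries stood at 36.1%, 23.9% (library 2) and 31.6%, against 32%, 32% and 28.8% in proestrus control, so that library 2 alone lay below the controls. Leaving out each library in turn gave differences over all strata of 3.05 to 5.09 points. The largest came without library 2 (exact permutation test, p = 0.0045, adjusted p = 0.139), which is singled out here after its values were seen. When levels were ranked among all peaks, the difference changed sign.

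For males against females 0 of 8 members and 0% of 14757 genes were called by promoter level, with 0 members and 1887 genes at an unadjusted p under 0.05. For diestrus against proestrus 0 of 8 members and 0% of 14493 genes were called, with 0 members and 1277 genes at that p. For the sex difference in the cocaine effect 0 of 8 members were called, against 6.98% of 14757 genes, and 0 members stood at an unadjusted p under 0.05. The smallest p among members was 0.0527 (exact permutation test, two-sided, adjusted p = 0.161), for Pdgfra.

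The genes whose peaks per window ran most like the summed peaks of the 10 members were Prtg (Spearman's rho = 0.928), Dennd2a (0.902) and Setd7 (0.891), over 17 libraries. These values are a description, and the libraries share their differences in peak number. Mbp gave 781 of the 1401 summed peaks, so the sum follows mainly the Mbp window.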

How the data were processed

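ATAC-seq was performed on NeuN+ nuclei of 17 libraries, each pooled from 3 animals. Per the labels and the methods of the study, the authors trimmed adapters, aligned reads to mm10 with BWA and ran MACS2 on 1 library at a time. The submitters' processing notes also name featureCounts and DESeq2, with which the authors tested read counts in peaks. Versions and peak-calling options are not given in the sources used here. The deposited peak lists give each peak with a score (10 times its −log10 q), a fold enrichment over background and the −log10 p and −log10 q that the authors' peak caller assigned. These values belong to 1 library each and were not normalized between libraries. Reads were not analysed here. The study reports read numbers and quality control metrics for these libraries, but they were not used. Depth was thus not compared with the results, and the number of peaks (75458 to 157005 per library) stands in its place.

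Peaks on chromosomes 1 to 19 and X were joined by at least 1 bp to gene bodies of the GENCODE vM21 annotation extended by 10 kb, and to starts within 1 kb. A promoter level was the percent of reference promoters with a lower fold enrichment in that library, and 0 without a peak. Peaks of all libraries were merged into regions, which were kept where at least 2 libraries of a group had a peak, and those called in 4 to 13 libraries were tested by Fisher's exact test. Mean differences were tested by enumerating all label assignments within strata (two-sided exact permutation test), with Benjamini-Hochberg adjustment over all genes tested and a threshold of 0.05. The code was tested on simulated data. Python 3.11.15, NumPy 2.4.6, pandas 2.3.3 and SciPy 1.17.1 were used.

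The members and lists were chosen with earlier results of these data known. All 10 members are named, and of the wider lists at most 3 genes each, in alphabetical order, first those called in a test, apart from the genes open in 1 library alone, of which 1 is not reported here. Neighbours, Rbfox3, Gad2, Ppp1r1b and the 3 genes most like the members by Spearman correlation are named too. Alternatives were peaks of −log10 q of at least 5, an equal number of strongest peaks, gene bodies alone, peaks by summit, covered length, peaks per 100000 peaks, other promoter distances and ranks, a replicate block, and leaving out each library. Replicate numbers in the labels were not used to pair libraries in the main tests. Same-numbered libraries correlated at -0.624 to 0.349 over 7 pairs, negatively in diestrus and positively in proestrus and males, with 4 pairs over 0.1. With 2 or 3 libraries in a group, these correlations cannot show whether the libraries were paired. The study calls the libraries of a group biological replicates, and p-values rest on the spread between these pools.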

Additional observations from a re-analysis of the deposited data

Results flagged for a closer look

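A sex difference in the cocaine effect was called at 2 members, by exchanging sex labels within each treatment. The calls rest on 2 male cocaine libraries, which had the fewest peaks, and in males treatment and peak number cannot be told apart. For Aldh1l1 the difference in peaks per window was -12.8 for males minus females, and for Pdgfra it was -3.67 (exact permutation test, two-sided, adjusted p = 0.0199 for both). Such calls were made for 6.25% of all genes tested, and neither call was made with an equal number of peaks per library.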

How the results depend on the processing

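Counts of called members were compared with those under each alternative, and the cause of a change was not tested. For cocaine against control by peaks per window, 0 members became 1 (Gfap) by covered length, and 0 to 1 when leaving out each library in turn. The 1 came without diestrus cocaine library 1, where 5157 genes were called in place of 0. Covered length called 2724 genes and peaks per 100000 peaks 465. For males against females, 0 genes called became 1411 by covered length and 806 per 100000 peaks. Without diestrus cocaine library 1 it became 243, and for cocaine against control by promoter level 0 genes became 149. For the sex difference by peaks per window, 2 members became 0 with an equal number of strongest peaks (genes called fell from 1114 to 0), 1 with gene bodies alone, and 0 to 3 when leaving out each library (genes 0 to 1303). The 0 came without male control library 3, male cocaine library 1 or male cocaine library 2. Covered length called 3 members (Mbp added) and 4835 genes there, and −log10 q of at least 5 left the count at 2, with Mbp called in place of Aldh1l1. For the sex difference by promoter level, 0 members became 2 when peaks were ranked among all peaks (4707 genes in place of 1030) and 0 to 1 when leaving out each library (genes 0 to 3340), the 1 without diestrus cocaine library 1. The Mbp promoter level after cocaine changed sign, from 3.98 to -0.687, when ranked among all peaks.

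Regions gained in diestrus (2) and proestrus (1) and lost in diestrus (1) and proestrus (1) all became 0 with −log10 q of at least 5. With an equal number of strongest peaks, those gained in diestrus, gained in proestrus and lost in proestrus became 0, and the 23 lost in males became 15. With peaks covering at least 50% of the region, the one lost in proestrus became 0. Leaving out each library gave 2 to 4 gained and 1 to 2 lost in diestrus, 1 to 3 gained and 1 to 5 lost in proestrus, and 23 to 31 lost in males. The sum of promoter calls over members and libraries fell from 62 to 36 with the 5′ end of the gene alone. With the replicate block, 0 members were called for cocaine against control in either measure. The Gfap difference was then -2.89 peaks (exact permutation test, adjusted p = 0.34), and the block, run for this contrast only, changed no call.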
